A study of Mus musculus with 6 samples.

Results

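Chemokines of the Ccl and Cxcl families, Cx3cl1, and a set of cytokines that fibroblasts are known to make were measured as RNA in mouse embryonic fibroblasts (MEFs). All genes whose symbol was Ccl or Cxcl followed by a number were taken, 18 and 11 in all, together with Cx3cl1, Il6, Il11, Lif, Csf1, Csf2, Csf3, Il33 and Il1rl1, which gave 38 of the 26231 genes in the table. The genes were taken by name with no cut on a measured value, but the set itself was proposed with earlier results of these data known. Of the 38 genes, 12 reached 1 RPKM in at least 3 of the 6 libraries and were tested, and 26 did not.

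The MEFs came from FVB embryos, of approximately 14 days in the labels and a slightly earlier day in the study's methods, that carried Nf2 alleles flanked by loxP sites (Nf2fl/fl), and both lines were immortalized with SV40 large T antigen. The 3 libraries labelled MEF WT (control) came from cells given a CMV-GFP control lentivirus, so their alleles were floxed rather than native, and the 3 libraries labelled MEF Nf2 KO (the KO-labelled libraries) from cells given a CMV-Cre GFP lentivirus. There was 1 line of each kind, so the loss of Nf2 and any other difference between those lines cannot be told apart. Cells of both lines were grown in DMEM with FBS and kept in serum-free medium for 24 h before RNA was taken. The libraries of each line carry the marks A, B and 2018 (replicates 1, 2 and 3), and what the marks stand for is not given. Nothing says that they were separate cultures, so p-values measure only the spread between these libraries. Values were read as RPKM, reads per kilobase of exon scaled to the depth of the library, and the steps between low values put the depth at about 13400000 to 19300000 reads in libraries marked A or B and at about 61100000 and 73000000 reads in those marked 2018.

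Nf2 RNA was not lower in the KO-labelled libraries. It stood at 14.3, 13.7 and 13.1 RPKM in MEF WT A, B and 2018 and at 15.4, 12.9 and 13.9 RPKM in the other line (two-sided exact permutation p = 0.8, with 0.1 the lowest that 3 against 3 can give). The single value per gene covers all exons and does not show whether a part was deleted, so every direction between the lines follows the labels. Of 10 fibroblast markers, 9 were tested. Vim was the highest at 536 to 882 RPKM, and Lum, a collagen-binding proteoglycan, the lowest at 0 to 0.247 RPKM. The summed fibroblast markers were at 2465 to 3268 RPKM in MEF WT and at 1700 to 2241 RPKM in the KO-labelled libraries. Markers of macrophages summed to 7.68 to 12.0 RPKM, mostly Cd68, with the leukocyte gene Ptprc at or under 0.00896 RPKM in every library. The highest epithelial marker was Krt18, at most 0.409 RPKM, and the highest T cell marker Cd4, at most 0.0131 RPKM.

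Chemokines are small secreted proteins that draw leukocytes along a gradient through G protein-coupled receptors. The Ccl2 and Ccl7 type recruits monocytes, the Cxcl1 and Cxcl5 type neutrophils, and Cxcl9, Cxcl10 and Cxcl11 activated T cells. Fibroblasts add the colony stimulating factors and cytokines of the interleukin 6 family, which act on the growth and activation of myeloid cells. Many of these genes are switched on by NF-kB after interleukin 1 or TNF, and the Cxcl10 group after interferon.

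Promoter sequence was available from RefSeq (GRCm38.p6) for 28 of the 38 genes. There was no entry for Ccl2, Ccl5, Ccl7, Ccl11, Ccl24, Csf3, Cxcl5, Cxcl11, Cxcl16 and Cxcl17. The 250 bases before the start are shown for the genes with an entry that passed the threshold of the main test in either comparison below. They lie at chr3:107760470-107760719 on the minus strand (Csf1), chr11:4257318-4257567 on the plus strand (Lif), chr5:92348890-92349139 on the minus strand (Cxcl10) and chr11:83578637-83578886 on the minus strand (Ccl9). Il1rl1 has a pair of annotated starts on the plus strand, with windows at chr1:40429320-40429569 and chr1:40439379-40439628. Each sequence runs 5′ to 3′ along the strand of the gene, and capitals mark the NF-kB binding motif (kB motif). In Cxcl10 the first run of capitals is instead the interferon element GAAANNGAAA.
Csf1: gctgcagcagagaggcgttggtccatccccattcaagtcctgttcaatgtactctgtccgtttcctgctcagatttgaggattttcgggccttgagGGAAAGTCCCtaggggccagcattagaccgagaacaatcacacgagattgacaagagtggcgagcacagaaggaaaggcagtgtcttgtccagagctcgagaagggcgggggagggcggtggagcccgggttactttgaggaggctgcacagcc
Lif: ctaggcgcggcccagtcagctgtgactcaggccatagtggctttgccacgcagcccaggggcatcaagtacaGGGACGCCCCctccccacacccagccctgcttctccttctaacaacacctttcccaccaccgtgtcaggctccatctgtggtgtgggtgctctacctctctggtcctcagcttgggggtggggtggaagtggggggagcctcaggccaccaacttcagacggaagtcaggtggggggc
Cxcl10: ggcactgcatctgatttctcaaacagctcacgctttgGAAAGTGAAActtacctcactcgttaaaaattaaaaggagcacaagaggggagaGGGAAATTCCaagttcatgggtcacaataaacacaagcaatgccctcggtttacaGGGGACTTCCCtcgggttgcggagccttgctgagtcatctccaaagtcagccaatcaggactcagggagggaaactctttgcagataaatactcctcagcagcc
Ccl9: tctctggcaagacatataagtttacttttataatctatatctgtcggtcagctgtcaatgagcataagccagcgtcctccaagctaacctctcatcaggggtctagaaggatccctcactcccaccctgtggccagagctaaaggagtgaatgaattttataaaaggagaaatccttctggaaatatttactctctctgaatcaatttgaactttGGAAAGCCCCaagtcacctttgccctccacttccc
Il1rl1, upstream start: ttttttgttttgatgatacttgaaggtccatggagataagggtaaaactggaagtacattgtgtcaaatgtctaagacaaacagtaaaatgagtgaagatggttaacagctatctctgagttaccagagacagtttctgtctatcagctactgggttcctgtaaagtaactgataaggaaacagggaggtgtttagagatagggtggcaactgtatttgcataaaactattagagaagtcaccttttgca
Il1rl1, downstream start: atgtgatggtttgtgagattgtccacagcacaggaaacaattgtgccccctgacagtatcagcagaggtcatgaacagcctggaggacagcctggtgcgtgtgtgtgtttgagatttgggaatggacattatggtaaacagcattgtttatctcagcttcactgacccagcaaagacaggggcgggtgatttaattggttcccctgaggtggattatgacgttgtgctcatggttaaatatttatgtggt
For the motif counts, a gene was counted if any of its promoter entries matched. The shares over all promoters count entries, and a gene can have several, so the units are not alike. In these windows, with both strands searched, the kB motif was found in 8 of the 28 genes (Ccl9, Ccl20, Csf1, Cxcl1, Cxcl2, Cxcl10, Il6 and Lif) and in 7.25% of all 32851 promoters in the table. Its first base lay 154 bases before the start in Csf1, 178 in Lif, 159 and 104 in Cxcl10 and 35 in Ccl9. The second run in Cxcl10 holds overlapping matches of the motif on both strands, and the match in Lif reads on both strands too. GAAANNGAAA was found in Cxcl10 and Cxcl14 (2.98% of all promoters), the AP-1 motif TGACTCA in Ccl27a, Ccl27b, Cxcl10, Il6, Il11 and Lif (4.46%), and the STAT motif TTCNNNGAA in Ccl17 and Cxcl14 (7.02%). Neither Il1rl1 window held any of these motifs. A match describes the letters of the window and does not show that a factor binds there.

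The ligand RNA of these fibroblasts was dominated by 3 genes. Csf1 encodes the growth and survival factor of macrophages, and Ccl2 and Ccl7 neighbouring monocyte chemokines. Together they made up 80.2% to 94.0% of the summed RPKM of the 37 ligand genes, Il1rl1 being a receptor. Csf1 alone took 50.4% to 71.1%. The sum was 184, 373 and 213 RPKM in MEF WT A, B and 2018 and 243, 547 and 267 RPKM in the KO-labelled libraries, so in each line the library marked B was the highest.

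**Figure D1:**
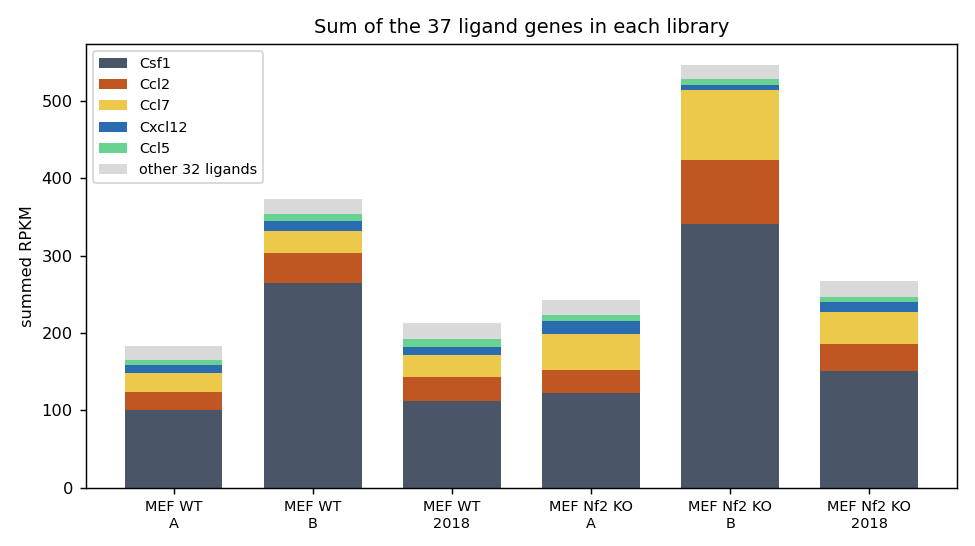
Stacked bars give the summed RPKM of the 37 ligand genes in each of the 6 libraries, from 0, with the 5 highest genes in colour and the other 32 in grey. Csf1 is the largest block in every bar, and the library marked B is the tallest of each line, at 373 and 547 RPKM.

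**Figure D2:**
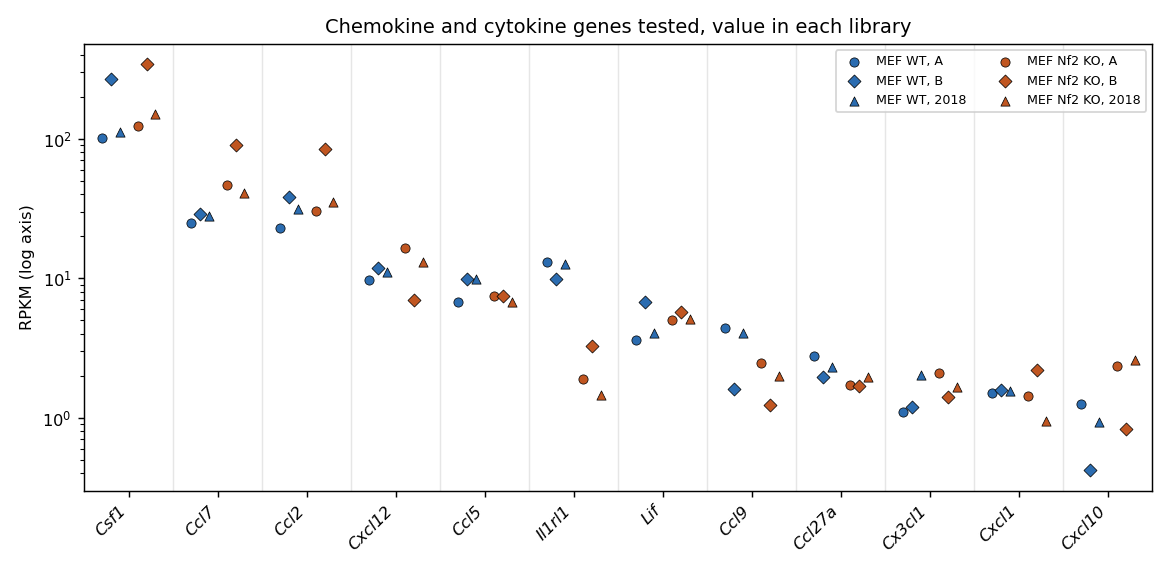
Points give the RPKM of the 12 tested genes in each library on a log axis, ordered by mean. Colour stands for the line and the shape of the point for the mark A, B or 2018, and Il1rl1 and Ccl7 are the genes whose lines do not overlap.

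The first comparison asked which of these genes differed between the lines. The RNA for Il1rl1 was the only one of the 12 to pass the threshold, and it was lower in the KO-labelled libraries. Il1rl1 (GRCm38, GENCODE, chr1:40429570-40465415, plus strand) encodes ST2, the receptor for interleukin 33 and, as a soluble form, its decoy. It stood at 13.0, 9.90 and 12.7 RPKM in MEF WT A, B and 2018 and at 1.91, 3.29 and 1.47 RPKM in the KO-labelled libraries. The lowest MEF WT library was above the highest of the other line. The means were 11.9 ± 1.72 and 2.22 ± 0.953 RPKM (SD, n = 3 each), and the log2 fold change on log2(RPKM + 1) was -2.03 (standard error, SE, 0.22, limma adjusted p = 0.0217). By size of change it ranked 26 of the 11067 genes tested. With the replicate number as a block the adjusted p was 0.0106. The call was lost without MEF WT replicate 1 (adjusted p = 0.108) or replicate 3 (0.0965), without MEF Nf2 KO replicate 1 (0.130) or replicate 3 (0.0778), without replicate 1 (0.512) or 3 (0.373) of both lines, and without a filter on low values (0.107), while the log2 fold change stayed between -2.63 and -1.81 in all 17 alternatives. Among all genes tested, 0.578% were called lower and 0.479% higher in this comparison, so 1 of 12 stood beside a background of about 1 in 100 genes. The table does not separate the RNAs of the membrane and the soluble form. In a bulk sample, fewer cells that make a gene and less RNA of it per cell cannot be told apart.

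The ligand and the co-receptor of ST2 were not called between the lines. Il33, an alarmin kept in the nucleus and released from damaged cells, was at 0.592, 0.0914 and 0.419 RPKM in MEF WT and at 0.690, 0.0898 and 0.393 RPKM in the KO-labelled libraries, under the filter and overlapping between the lines. Il1rap, the shared co-receptor of ST2 and the interleukin 1 receptor, stood at 3.32, 5.49 and 3.33 RPKM against 3.80, 4.76 and 3.46 RPKM, a log2 fold change of 0.01 (SE 0.19, limma adjusted p = 0.998). Il1r1, which encodes the interleukin 1 receptor itself and is named after its values were seen, was at 2.50, 3.54 and 3.57 RPKM in MEF WT and at 1.56, 1.64 and 1.10 RPKM in the other line. Its lines did not overlap, but the difference missed the threshold (log2 fold change -0.79, SE 0.15, limma adjusted p = 0.0901, 0.0304 with the replicate block). Il1rn, the secreted antagonist of that receptor and likewise named after its values were seen, ran the other way at 0.134, 0.200 and 0.0885 RPKM in MEF WT and 3.36, 0.927 and 1.67 RPKM in the KO-labelled libraries. It did not pass the filter of the main test. In a limma-voom fit to recovered reads, chosen after seeing the data and described further on, it was called higher in the KO-labelled libraries (log2 fold change 3.79, SE 0.62, adjusted p = 0.0312). The agonists of the receptor were near 0, with Il1a at most 0.140 RPKM and Il1b at most 0.0215 RPKM.

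The monocyte chemokines Ccl2 and Ccl7 stood higher in the KO-labelled library than in the MEF WT library of each mark, but Ccl2 was not called and Ccl7 was called only under alternatives. Ccl7 (chr11:82045712-82047525, plus strand) was at 25.0, 29.0 and 28.1 RPKM in MEF WT and at 46.7, 89.6 and 41.0 RPKM in the KO-labelled libraries. Its lines did not overlap. Its log2 fold change was 1.00 (SE 0.28, limma adjusted p = 0.240, and 0.0476 with the replicate block), and without replicate 2 of both lines it passed at 0.70 (adjusted p = 0.0215). Ccl2 (chr11:82035571-82037453, plus strand), which lies in the same cluster and ends 8259 bases before Ccl7, was at 22.8, 38.3 and 31.1 RPKM against 30.1, 83.7 and 35.1 RPKM. Here the lines overlapped, with a log2 fold change of 0.55 (SE 0.39, limma adjusted p = 0.818, and 0.152 with the replicate block). Without MEF Nf2 KO replicate 2 the log2 fold change of Ccl2 dropped to 0.11. The ratio of Ccl7 to Ccl2 RPKM was 1.10, 0.756 and 0.903 in MEF WT and 1.55, 1.07 and 1.17 in the KO-labelled libraries. Of their neighbours in that cluster, Ccl11 and Ccl12 were listed at 0 outside the 2018 libraries, and Ccl8 had at most 1 recovered read there.

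Cxcl10, a chemokine for activated T cells made under interferon, was likewise called only under alternatives. It was at 1.25, 0.421 and 0.935 RPKM in MEF WT and at 2.36, 0.829 and 2.59 RPKM in the KO-labelled libraries, higher in each mark while the lines overlapped. The log2 fold change was 0.61 (SE 0.30, limma adjusted p = 0.617, and 0.0410 with the replicate block), and it passed without replicate 2 of both lines (adjusted p = 0.0297). Part of its exons, 5.91%, overlap Art3 on the other strand, and whether the counting used strand is not stated. With the block, 2.99% of all genes were called higher and 4.54% lower, against 2 higher (Ccl7 and Cxcl10) and 1 lower (Il1rl1) of the 12. Of all genes, 7.6% had libraries labelled MEF Nf2 KO entirely above MEF WT and 7.52% entirely below, against 1 (Ccl7) and 1 (Il1rl1) of the 12.

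The remaining tested genes did not pass the threshold between the lines, with or without the block, and of these Ccl9 passed once replicate 2 of both lines was left out (adjusted p = 0.0291). Ccl9, a chemokine of myeloid cells, was at 4.42, 1.61 and 4.03 RPKM in MEF WT and at 2.49, 1.24 and 1.99 RPKM in the KO-labelled libraries (log2 fold change -0.53, limma adjusted p = 0.721). It was lower in that line in every mark. Ccl5, which attracts T cells and monocytes, was at 6.73, 9.89 and 9.93 RPKM against 7.43, 7.51 and 6.74 RPKM (log2 fold change -0.24). Cxcl12, the homeostatic chemokine that retains stem and immune cells, was at 9.64, 11.9 and 11.1 RPKM against 16.4, 7.04 and 13.1 RPKM (log2 fold change 0.08). The KO-labelled values of Cxcl12 lay on both sides of the MEF WT range. Lif was at 3.64, 6.72 and 4.07 RPKM against 5.05, 5.77 and 5.13 RPKM (log2 fold change 0.16). Cx3cl1, a membrane-bound chemokine, was at 1.10, 1.19 and 2.02 RPKM against 2.10, 1.41 and 1.66 RPKM (log2 fold change 0.17). Cxcl1, a neutrophil chemokine, was at 1.51, 1.57 and 1.57 RPKM against 1.44, 2.21 and 0.949 RPKM (log2 fold change -0.04). Ccl27a, known as a skin chemokine for T cells, was at 2.78, 1.95 and 2.33 RPKM against 1.72, 1.70 and 1.97 RPKM, but 57.0% of its 31-base stretches occur in copies such as Ccl27b, so its level is uncertain. For the 12 genes the median log2 fold change between the lines was 0.12, beside -0.01 over all genes tested.

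**Figure D3:**
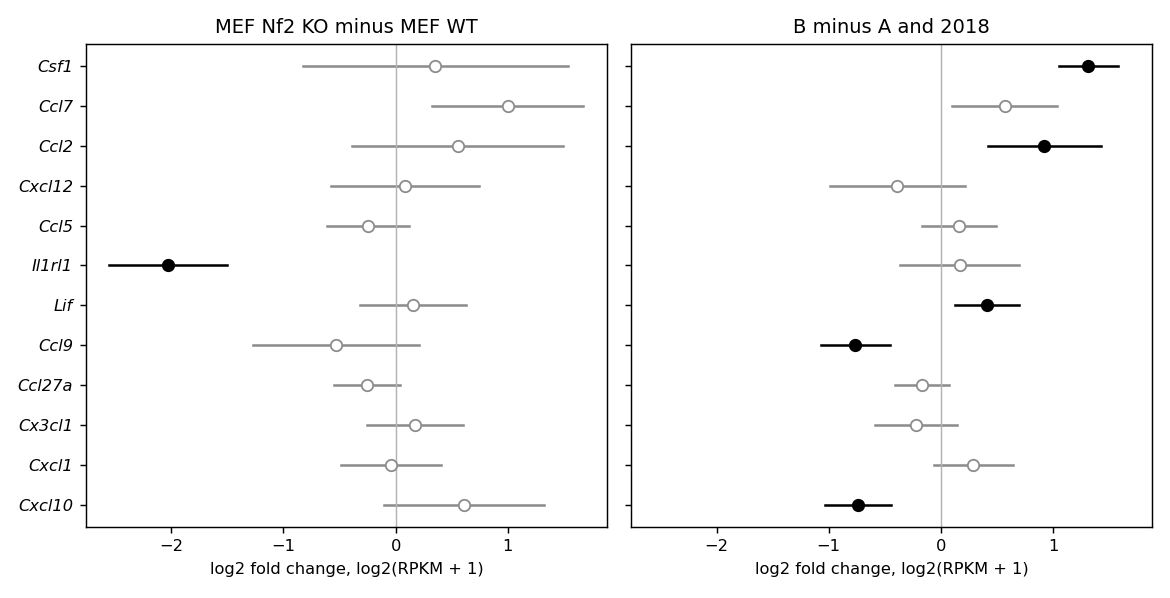
Points give the log2 fold change of the 12 tested genes between the lines (left) and between libraries marked B and those marked A or 2018 (right), and bars the 95% intervals from limma. Filled points passed the threshold, which were Il1rl1 on the left and Csf1, Ccl2, Lif, Ccl9 and Cxcl10 on the right, where Cxcl10 met the filter only through the A and 2018 libraries.

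The second comparison set the 2 libraries marked B against the 4 marked A or 2018, with the line as a term in the fit. Csf1, Ccl2 and Lif were higher in B and Ccl9 lower. Cxcl10 was past the threshold too, but it met the filter only through 3 libraries marked A or 2018, where it is high, so its values are a description and it is left out of the calls. Among all genes tested, 10.8% were called higher and 19.8% lower, so 3 higher and 1 lower stood beside a background in which nearly 1 gene in 3 was called. With quantile normalization the split over all genes was 1553 higher and 1412 lower, against 1195 and 2191 without it. In 4 of the 12 genes both B libraries lay above the other 4 (16.8% of all genes) and in 2 of them, Ccl9 and Cxcl10, below (29.8% of all genes). The median log2 fold change was 0.16 for the 12 genes and -0.08 over all genes.

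Csf1 (chr3:107741048-107760469, minus strand) was at 101, 265 and 112 RPKM in MEF WT A, B and 2018 and at 123, 341 and 151 RPKM in the KO-labelled libraries. Both B libraries were far above the rest, by 2.49-fold within MEF WT and also 2.49-fold within the KO-labelled libraries. The log2 fold change was 1.31 (SE 0.11, limma adjusted p = 0.000974), rank 101 of 11067 by size, and it passed in all 16 alternatives. Between the lines Csf1 gave a log2 fold change of 0.35 (SE 0.49, limma adjusted p = 0.953, and 0.0557 with the replicate block), which turned to -0.09 without MEF Nf2 KO replicate 2. Its receptor Csf1r, which marks macrophages, was at most 0.162 RPKM in any library. Il34, the other ligand of that receptor, was lower in B, at 1.67 and 1.67 RPKM against 2.46 to 3.78 RPKM (log2 fold change -0.59, SE 0.13, limma adjusted p = 0.0165).

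Ccl2 in B was at 38.3 RPKM in MEF WT and 83.7 RPKM in the KO-labelled libraries, against 22.8 to 35.1 RPKM in the other 4. The B libraries were higher by 1.42-fold in MEF WT and 2.57-fold in the other line, and the log2 fold change was 0.92 (SE 0.21, limma adjusted p = 0.0208). Without MEF Nf2 KO replicate 2 it was 0.51 and missed the threshold (adjusted p = 0.172), as it did without replicate 1 of both lines (0.099996) and without a filter (0.101). For Ccl7 the B library was 1.09-fold above the others in MEF WT and 2.04-fold in the KO-labelled libraries, with a log2 fold change of 0.57 (SE 0.20, limma adjusted p = 0.0683). Without MEF WT replicate 2 the value was 1.02 and passed (adjusted p = 0.0147), and without MEF Nf2 KO replicate 2 it was 0.12 (adjusted p = 0.616). Lif, a cytokine of the interleukin 6 family that acts through Lifr and Il6st, was at 6.72 and 5.77 RPKM in B against 3.64 to 5.13 RPKM (log2 fold change 0.41, SE 0.12, limma adjusted p = 0.0412, 0.0584 with the replicate block). The Lif call was lost in 8 of 16 alternatives, which left out MEF WT replicate 1 (adjusted p = 0.0815), 2 (0.483) or 3 (0.0889), MEF Nf2 KO replicate 1 (0.0566), replicate 1 (0.110) or 3 (0.0899) of both lines, or the filter (0.166), or added the block.

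Cxcl10 was at 0.421 and 0.829 RPKM in B and at 0.935 to 2.59 RPKM in the other libraries. Both B values were below all others, with a log2 fold change of -0.74 (SE 0.13). Without a filter on low values it was not called (limma adjusted p = 0.0524), and it missed the threshold under another alternative as well. Ccl9 fell in B to 1.61 and 1.24 RPKM against 1.99 to 4.42 RPKM, a log2 fold change of -0.76 (SE 0.13, limma adjusted p = 0.00702). Ccl9 missed the threshold without MEF WT replicate 2 (adjusted p = 0.0877) and without a filter (0.0600). The other 6 tested genes beside Ccl7 had log2 fold changes from -0.39 (Cxcl12) to 0.29 (Cxcl1) and did not pass. Without MEF WT replicate 2, Cxcl12 (-0.96, adjusted p = 0.0244) and Il1rl1 (0.68, adjusted p = 0.0395) did. With the replicate block, which fits A and 2018 apart, 11.4% of all genes were called higher and 22% lower, and Csf1, Ccl2 and Ccl9 passed, with Cxcl10 under the same limit.

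Whether B differed from the other marks by line was tested as an interaction. No gene of the 11067 passed (limma, 313 at an unadjusted p under 0.05), with 2 residual degrees of freedom per gene before moderation and 1 library of each line marked B. Of the 12 genes, 5 had an unadjusted p under 0.05, and their adjusted p was 0.841 or higher. Il1rl1 was lower in B than in A and 2018 within MEF WT (0.770-fold) and higher within the KO-labelled libraries (1.95-fold), and Cxcl12 the reverse (1.15-fold and 0.477-fold). Ccl2, Ccl7 and Lif were the other genes of the 5.

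Cytokines under the filter were seen at low levels. Il11, which drives fibrosis through Il11ra1 and Il6st, was at 0.571, 1.67 and 0.800 RPKM in MEF WT and at 0.505, 0.648 and 0.362 RPKM in the KO-labelled libraries. Il6, the founding member of that family, was at 0.0918, 0.304 and 0.114 RPKM against 0.433, 0.406 and 0.231 RPKM, from 3 to 41 recovered reads a library. Csf3, the granulocyte factor, was highest in B of both lines, at 0.448 and 0.697 RPKM against 0.0116 to 0.105 RPKM. These were 12 and 19 recovered reads in B and 1 to 3 in each other library. Csf2, the factor for granulocytes and macrophages, was at most 0.198 RPKM. Il33 was lowest in B, with 5 recovered reads in each B library against 23 to 83 in the others.

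In a fit of limma-voom to recovered reads of the 18047 genes with at least 10 reads in all, chosen after seeing the data, 27 of the 38 genes were tested. Between the lines, 0.632% of 18047 genes were called higher and 0.887% lower, and of the 27 these were Ccl20 and Il1rl1. Ccl20 met the read minimum only through the KO-labelled libraries, so its values are a description. Ccl20, which draws dendritic cells and Th17 cells through Ccr6, was listed at 0 in MEF WT and at 0.350, 0.292 and 0.202 RPKM in the KO-labelled libraries. These were 0 reads against 9, 8 and 21, at least 10.7-fold higher when 3 reads over the MEF WT libraries are taken as the limit of detection. Without a filter, limma on log2(RPKM + 1) did not call it (adjusted p = 0.149). Ccl17, a chemokine for Th2 cells, had 0, 0 and 6 reads in MEF WT against 4, 4 and 15, and Cxcl5, a neutrophil chemokine, 0, 4 and 9 against 4, 11 and 23. Neither passed (adjusted p = 0.227 and 0.477 from limma-voom).

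In the same fit, B against A and 2018 called 7.21% of all genes higher and 11.3% lower. Of the 27 genes, 5 were higher and 3 lower in B. Those higher were Csf1, Ccl2, Ccl7, Il11 (log2 fold change 0.99, limma-voom adjusted p = 0.0411) and Csf3, which met the read minimum only through the B libraries and is given as a description. Lif, called in the main test, was not called here (adjusted p = 0.0512). Those lower were Ccl9, Cxcl10, which entered this fit by its reads, and Il33 (-2.21, SE 0.56, adjusted p = 0.0242).

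**Figure D4:**
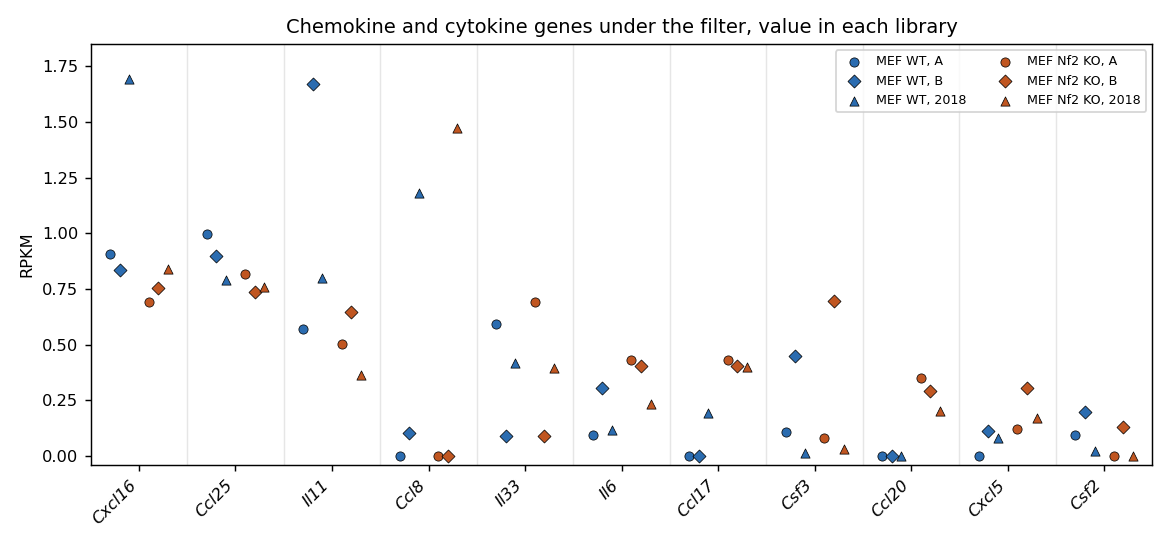
Points give the RPKM, from 0, of 11 genes that did not pass the filter, with colour for the line and shape for the mark. Csf3 is highest and Il33 lowest in the B libraries, Ccl20 is at 0 in all MEF WT libraries, and Ccl8 is above 1 RPKM in the 2018 libraries only.

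Ccl8, a monocyte chemokine of the Ccl2 cluster, was at 1.18 and 1.47 RPKM in the 2018 libraries, from 37 and 55 recovered reads, and had at most 1 read in each of the other 4. The macrophage genes C1qa, C1qb and Tyrobp, picked from a list of 12 after their values were seen, had the same distribution. C1qa was at 0.220 and 0.316 RPKM in the 2018 libraries and listed at 0 elsewhere. Cd68 and Cd14, the 2 genes of that list that were tested, reached 1 RPKM in at least 3 libraries. They were thus not confined to the 2018 libraries, and Ptprc was near 0 in every library. The 2018 libraries were also the deepest. The part of depth or of other cells in the Ccl8 values was not tested. Cxcl16, a membrane chemokine, was at 0.691 to 1.69 RPKM and Ccl25 at 0.738 to 0.998 RPKM, and 18.3% of the exon bases of Cxcl16 overlap Zmynd15 on the other strand. Ccl6, Ccl28, Cxcl14 and Cxcl17 did not exceed 0.293 RPKM, and Ccl12 did not exceed 0.122 RPKM. Another 10 genes (Ccl3, Ccl11, Ccl21a, Ccl22, Ccl24, Ccl27b, Cxcl2, Cxcl9, Cxcl11 and Cxcl15) stayed under 0.1 RPKM in every library. Ccl21a and Ccl27b share 80.6% and 100% of their 31-base stretches with copies, so their values are uncertain. In all, 11 of the 38 genes were listed at 0 in 3 or more libraries.

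The receptors for these chemokines were low. Of 20 chemokine receptor genes in the table, 19 stayed under 0.3 RPKM, with Ccr10 the highest of them at 0.0916 to 0.265 RPKM. Ackr3, a scavenging receptor for Cxcl12, was at 7.08, 10.6 and 10.5 RPKM in MEF WT and at 7.05, 8.86 and 7.98 RPKM in the KO-labelled libraries and passed in neither comparison. Of 17 cytokine receptors tested, 0 passed between the lines without the block. With it Il1r1, Tnfrsf1b (-0.49, adjusted p = 0.0205) and Ifngr2 (-0.39, adjusted p = 0.0337) were lower in the KO-labelled libraries, beside 4.54% of all genes. In B, 3 were higher and 4 lower, beside 10.8% and 19.8% of all genes, shares near those of the list. Il6st, the signal-transducing chain of the interleukin 6 family, fell to 28.1 and 32.8 RPKM from 35.0 to 59.1 RPKM (log2 fold change -0.59, limma adjusted p = 0.0230). Il11ra1 (-0.38), Lifr (-0.87) and the TNF receptor Tnfrsf1b (-0.90) fell too, while Il1rap (0.45), Il17ra (0.46) and Ifngr1 (0.61) were higher. With quantile normalization Il11ra1 and Lifr missed the threshold. Tnfrsf1a, the main TNF receptor, was among the highest of the list at 30.8 to 43.5 RPKM and did not pass (limma adjusted p = 0.0817).

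Of 23 NF-kB pathway genes tested, 7 were higher in B, 1 was lower and 15 did not pass, with a median log2 fold change of -0.01 beside -0.08 over all genes. Of all genes, 10.8% were called higher and 19.8% lower. None of the 23 passed between the lines without the block, and with it Nfkb1 (0.45, adjusted p = 0.0162) was higher and Nfkbiz (-0.47, adjusted p = 0.0243) lower in the KO-labelled libraries. Ptgs2, the inducible prostaglandin synthase, was at 144 and 94.8 RPKM in B and at 10.2 to 21.4 RPKM elsewhere (log2 fold change 2.69, SE 0.22, limma adjusted p = 0.00131). Tnfaip3, a deubiquitinase that shuts the pathway off, was at 24.7 and 46.2 RPKM against 3.81 to 10.7 RPKM (log2 fold change 2.31, SE 0.19, limma adjusted p = 0.00111). Nfkbia, the inhibitor that holds NF-kB in the cytoplasm, was at 41.7 and 39.1 RPKM against 18.1 to 23.0 RPKM (log2 fold change 0.91). Among the subunits and other regulators, Nfkb2 (0.86), Nfkbiz (0.64), Relb (0.46) and Rela (0.28) were higher and Bcl3 (-0.96) was lower. With quantile normalization Rela missed the threshold and Traf6 passed it, and with the block Chuk passed as well. Tnf was listed at 0 in all libraries but MEF Nf2 KO 2018, where it was at 0.00835 RPKM.

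Of 15 STAT and interferon genes tested, 9 were lower in B, 0 higher and 6 did not pass, with a median log2 fold change of -0.63 beside -0.08 over all genes. Of all genes, 19.8% were called lower and 10.8% higher. None of the 15 passed between the lines, with or without the block. Ifit1, an interferon-induced RNA sensor, was at 1.21 and 1.46 RPKM in B against 5.85 to 7.85 RPKM (log2 fold change -1.79, SE 0.12, limma adjusted p = 0.000661). Isg15, an interferon-induced ubiquitin-like protein, was at 2.79 and 1.44 RPKM against 6.07 to 9.83 RPKM (log2 fold change -1.49). Among the others, the transcription factors Stat2 (-1.24), Irf1 (-0.98), Stat5a (-0.63) and Stat3 (-0.58) were lower as well, as were Ifit3 (-1.27) and Socs3 (-1.01). Jak1, the kinase with the highest level of the list, was at 31.9 to 43.3 RPKM and did not pass in either comparison. The same 9 genes were called with quantile normalization and with the block.

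The lists that follow are short, and 10.8% of all genes were called higher and 19.8% lower in B. Among 4 other cytokines tested, Kitl (0.68) was higher and Ctf1 (-0.59) and Il34 lower in B, and Clcf1, the highest of them at 5.62 to 9.07 RPKM, missed the threshold (limma adjusted p = 0.0617). With quantile normalization Il34 missed and Clcf1 passed, and Clcf1 passed with the block (adjusted p = 0.0322). Of 7 genes that govern the decay of cytokine mRNA, Zfp36l2 (0.48) passed in B but not with the replicate block (adjusted p = 0.0587) or quantile normalization, where Zc3h12a passed instead, and Khsrp, the highest, was at 32.8 to 40.1 RPKM. Of 5 proteases that cleave or shed chemokines and cytokines, 3 were lower in B and 0 higher, among them Mmp2 (-0.76) and Adam17 (-0.36). Mmp2 was at 71.7 and 63.5 RPKM against 102 to 139 RPKM, while Adam10, the main sheddase of Cx3cl1 and Cxcl16, was at 42.0 to 47.1 RPKM with a log2 fold change of 0.00 (SE 0.08). None of the 4, 7 and 5 genes passed between the lines without the block, though with the block Kitl, a growth factor of mast and stem cells, was lower in the KO-labelled libraries (log2 fold change -1.01, adjusted p = 0.235 without and 0.00615 with it).

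**Figure D5:**
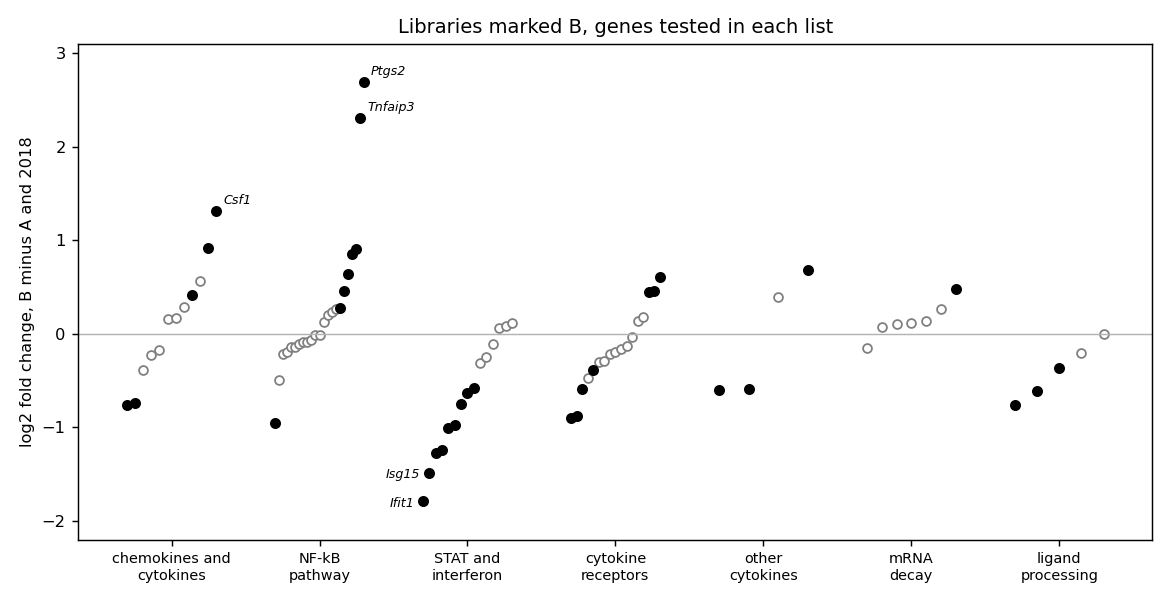
Points give the log2 fold change of B against A and 2018 for the tested genes of each list, sorted within a list, with filled points past the threshold. The NF-kB list reaches 2.69 for Ptgs2, and the STAT and interferon list has 9 filled points, all below 0.

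Markers of some other cell types differed in B too, while the summed macrophage, epithelial and T cell lists overlapped between B and the other libraries. Kdr, an endothelial receptor, was at 3.75 and 4.39 RPKM in B against 1.32 to 1.74 RPKM (log2 fold change 1.02, limma adjusted p = 0.00165). The summed endothelial list, of which 1 of 6 genes was tested, was at 3.89 and 4.45 RPKM in B against 1.46 to 1.84 RPKM, with Cdh5, Pecam1 and Cldn5 near 0 (named after their values were seen). The skeletal muscle list was at 3.11 to 6.63 RPKM in B against 0.831 to 1.20 RPKM, mostly Acta1, a muscle actin, and Ckm and Myh3 were near 0 (likewise). Of 9 fibroblast markers tested, 5 were lower in B (Col1a1, Col1a2, Col3a1, Pdgfra and Pdgfrb, with Pdgfra not called under quantile normalization and Thy1 called higher there and with the block), beside 19.8% of all genes, and the summed list was at 1700 and 2465 RPKM against 1926 to 3268 RPKM. Between the lines, the fibroblast markers Pdgfra (-2.35), S100a4 (-1.21) and Fn1 (-0.63) were lower in the KO-labelled libraries, in the same direction as Il1rl1 and beside 0.578% of all genes. With the block Col3a1 and Thy1 were lower there as well. The part of these differences in the values of the chemokine and cytokine genes was not tested.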

How the data were processed

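RNA from 3 MEF WT libraries and 3 libraries labelled MEF Nf2 KO was prepared and sequenced by GENEWIZ. The authors deposited 1 table of 26231 genes, whose values were taken as RPKM from their steps; the submitters' processing notes name mm10, and the aligner and counting tool are not given in the sources used here. Multiplied by exon length (GENCODE vM21), 82.3% to 85.4% of values of up to 20 reads lay within 0.05 of a whole read, where 10% would if spread evenly, so depths and recovered reads are inferences.

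The 38 genes, the gene lists and the B comparison were chosen with earlier results of these data known. Values were set to log2(RPKM + 1), which understates changes of low genes. Genes with at least 1 RPKM in 3 libraries (11067) were tested with limma 3.58.1 in R 4.3.3 (trend and robust), two-sided, Benjamini-Hochberg over all genes, threshold 0.05. The named genes are Nf2, all 38 genes, and of the other lists the genes past the threshold and the 2 highest. Also named are the highest marker of each cell type and the lowest fibroblast marker. Some genes of these lists are counted but not reported by name here.

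After subtracting each line's mean, libraries sharing a number correlated over genes (r = 0.552 for A, 0.819 for B, 0.516 for 2018), so the numbers pair the libraries. The main test has no block. Blocking on the replicate number was an alternative, printed where it changes a call. Alternatives changed the pseudocount, filter, scaling, limma settings, block and libraries. The fit was also run on simulated data. There the line comparison held no B difference, unlike in these libraries, so that run does not show how the line test performs here. Voom on recovered reads was chosen after seeing the data. Figures were drawn with matplotlib 3.10.9.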

Additional observations from a re-analysis of the deposited data

How the results depend on the processing

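Between the lines, the number of genes past the threshold was 117, and 9 without a filter on low values, 63 with a filter of 5 RPKM in 3 libraries and 833 with the replicate block. Of the chemokine and cytokine genes tested, 1 of 12 passed (Il1rl1), 0 of 38 without a filter (limma, with 4 at an unadjusted p under 0.05) and 3 with the replicate block. Leaving out libraries or replicate numbers gave 0 genes (without replicate 1 or 3 of both lines, limma, 578 and 556 at an unadjusted p under 0.05) to 484 genes and 0 to 4 of the chemokine and cytokine genes, the highest without replicate 2 (Ccl7, Ccl9, Cxcl10 and Il1rl1). For B against A and 2018, 3386 genes passed and 884 without a filter, and of the 12 chemokine and cytokine genes 5 passed (Cxcl10, which met the filter only through A and 2018, included), 2 of 38 without a filter (Csf1, and Csf3, which is not among the 12) and 3 of 7 with the filter of 5 RPKM. Leaving out libraries or replicate numbers gave 699 (without MEF Nf2 KO replicate 2) to 3375 genes, with 832 without MEF WT replicate 2, and 3 to 6 of the chemokine and cytokine genes. That comparison could not be fitted without replicate 2. The cause of these shifts was not tested. No call changed sign. The interaction had 0 genes past the threshold in all 6 alternatives run (189 to 1552 at an unadjusted p under 0.05, limma). Nf2 kept a limma adjusted p of 0.773 or more between the lines. Beside the calls named above, the replicate block changed no call of the 12 genes. Genes with few recovered reads are less precise in A and B than in the deeper 2018 libraries, and reads cover counting error only.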
